A study of Mus musculus with 32 samples.

Results

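RNA levels were compared between β cells and endothelial cells (ECs) sorted from mouse islets 1 week after withdrawal of doxycycline (Dox), a time point the study calls 1wk WD. The members were the 3 samples whose titles read 1wk WD-Beta and the 5 whose titles read 1wk WD-ECs, of 32 samples in all. Every mouse was adult and carried MIP-GFP together with RIP-rtTA and TetO-VEGF-A, a strain also written βVEGF-A; MIP-GFP. GFP is under the mouse *Ins1* promoter, and rtTA, made in β cells from a rat *Ins2* promoter, turns on the human VEGF-A transgene only while Dox is given. Both groups thus carried all the transgenes and had been through Dox treatment and its withdrawal, and each sample pooled islets of several mice. β cells were sorted as GFP+ cells without CD31 or CD11b, and ECs as CD31+ cells, so *Pecam1* (CD31) and *Itgam* (CD11b) belong to the gate and are no findings. The same strain without Dox (No Dox) gave 4 β cell and 4 EC samples for a separate comparison. The question was which ligand and matrix genes have their RNA in ECs, and which receptor genes in β cells.

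Islet capillaries and β cells exchange signals in both directions. β cells secrete VEGF-A, which acts on its receptor VEGFR2 (*Kdr*) on ECs, and ECs lay down laminins and collagen IV of the basement membrane on which β cells rest. Growth factors act through receptor tyrosine kinases, TGF-β family ligands through paired serine/threonine kinase receptors, and matrix proteins mainly through integrins. The RNA of a ligand in one cell type and of its receptor in another shows that both messages were present, and measures neither protein nor binding.

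The values are the authors' normalized scores, whole numbers with 1 as the lowest, for 22850 genes. Scores keep no read depth, so how precise a low score is cannot be said. They summed to 27728760, 29224425, and 39053769 in β cell replicates 1 to 3 and to between 31138639 and 33089426 in ECs. The 10 genes with the highest scores took 5.61, 8.83, and 30.25% of the sum in the β cell replicates and 4.17 to 4.35% in ECs. On the log2(score + 1) scale, the median SD of a gene between replicates was 0.596 in β cells and 0.333 in ECs. In the table's header, the library number of β cell replicate 3 follows those of the 5 ECs and is apart from those of β cell replicates 1 and 2, and what these numbers stand for is not stated.

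*Ins1*, an insulin gene, scored 350182, 1135945, and 5791698 in β cell replicates 1 to 3 and 963, 133, 115, 160, and 1963 in the ECs. *Kdr* scored 118, 433, and 1702 in β cells and 61402, 58413, 39326, 51315, and 44022 in ECs. Neither gene overlapped between the groups, and 46.7% of all tested genes did not overlap either. The *Ins1* promoter drives the GFP of the sort, so *Ins1* is no independent sign of the label. All 10 β cell markers were called higher in β cells and all 10 endothelial markers in ECs. Of all tested genes, 23.7 and 14.4% were called so, and on these markers both labels hold. The summed score of the endothelial markers was 4225, 7141, and 17896 in β cells against 398212 to 487962 in ECs, and that of the β cell markers was 371 to 3339 in ECs against 636632, 1919441, and 10941261 in β cells. β cell replicate 3 thus held the most β cell RNA and the most EC RNA of the 3.

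Markers of further cell types split the β cell samples. *Pdgfrb*, a pericyte receptor, scored 48280, 40295, and 3980 in β cells and 4647, 1975, 636, 3682, and 2229 in ECs. *Col1a1*, a fibroblast collagen, scored 61584, 51511, and 2958 in β cells and 65, 55, 63, 201, and 64 in ECs. The 14 pericyte and fibroblast markers summed to 394736, 361397, and 28648 in β cells and to 19703 to 79199 in ECs, none was at the lowest score in any of these samples, and all 9 that were called higher in β cells were lowest in β cell replicate 3. The 10 acinar markers summed to 611920, 109720, and 428 in β cells and to 865 to 62560 in ECs, and none was called. Macrophage (MΦ) markers, with 5 of 10 called higher in β cells, summed to 7436, 5032, and 8150 against 502 to 931, and 2 were at the lowest score in β cell replicate 1. The 5 lymphocyte markers, with 1 of the 3 tested called higher in β cells, summed to 5486 in β cell replicate 1, to 89 and 171 in the other 2, and to 24 to 92 in ECs. Schwann cell markers, with 3 of 5 called higher in β cells, summed to 2923, 4893, and 1697 against 158 to 616. Of the markers tested in the other lists, 5 of 6 of other islet endocrine cells, 4 of 4 ductal and 1 of 4 lymphatic were called higher in β cells. In ECs, 1 of 6 other endocrine and 1 of 4 platelet markers were. Beside these counts, 23.7% of all tested genes were called higher in β cells and 14.4% in ECs, so 1 call in a list is no result about its cell type. The part of these cell types in the results for β cells was not tested, and the place of β cell replicate 3, which held the least pericyte, fibroblast, and acinar RNA, is given beside many of them. In sorted bulk RNA, fewer cells of a type and less RNA per cell cannot be told apart.

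**Figure D1:**
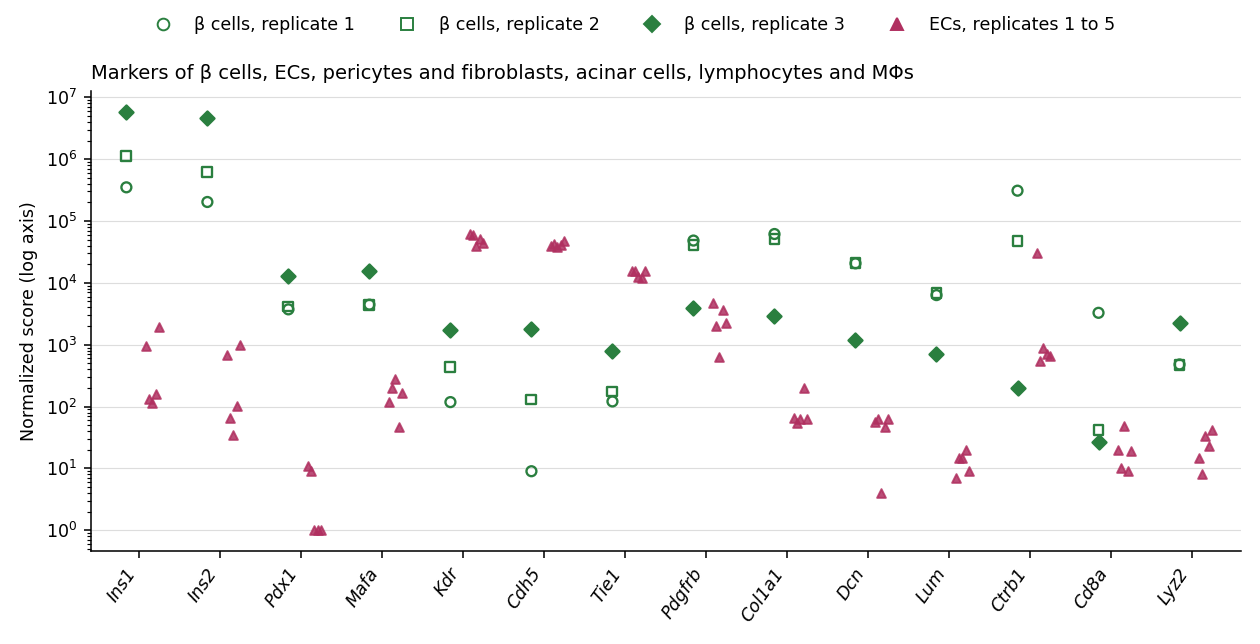
Normalized scores (log axis) of marker genes in each of the 3 β cell samples (green, 1 symbol per replicate) and the 5 EC samples (triangles) at 1wk WD. β cell replicate 3 (filled diamond) has the highest *Ins1* score, 5791698, and the lowest *Col1a1* score of the β cell samples, 2958.

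Over all genes, 16052 had a mean score of at least 20 in one of the groups and were tested. A gene was called where limma gave an adjusted p under 0.05 and the groups differed at least 2-fold. Of those tested, 2318 genes (14.4%) were called higher in ECs and 3805 (23.7%) higher in β cells, which makes 62.1% of the calls higher in β cells. This split turned with the scaling: after quantile normalization, 3639 genes were higher in ECs and 2659 in β cells, or 42.2% of the calls, and the median log2 difference of all tested genes moved from 0.12 to -0.28. Differences below are β cells minus ECs with their SE, on the log2(score + 1) scale, which understates the change of low genes. The median of 0.12 was not subtracted from them and is the level to read them against. The genes with the largest differences in favor of β cells were *Iapp*, *Ins2*, *Ins1*, *Prlr*, and *Glp1r*, and those in favor of ECs were *Sox17*, *Klhl4*, *Esm1*, *Myct1*, and *Cyyr1*. Among the β cell calls, replicate 3 lay below replicates 1 and 2 for 33.6% and above both for 54.6%. With replicate 3 as the only β cell sample, a setting chosen after seeing the data in which this lone sample is assumed to vary like the others, 15585 genes were tested, and 3305 (21.2%) were called higher in ECs and 3775 (24.2%) in β cells.

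For the genes of 2 of the ligand-receptor pairs described below, the 250 bases before the annotated start show how the letters of a shared motif are placed. *Vegfa* is higher in β cells and *Kdr* in ECs, while *Efnb2* and *Ephb4* are both higher in ECs. The sequences are from RefSeq on GRCm38.p6, which is a later build than the mm9 of the expression values, and read 5′ to 3′ on the strand of the gene. Capitals mark GGGCGG, the GC box, on either strand. *Vegfa* lies on the minus strand at chr17:46032378-46032627 (the outer of 2 annotated windows), *Kdr* on the minus strand at chr5:75978456-75978705, *Efnb2* on the minus strand at chr8:8661243-8661492, and *Ephb4* on the plus strand at chr5:137349859-137350108.
Vegfa: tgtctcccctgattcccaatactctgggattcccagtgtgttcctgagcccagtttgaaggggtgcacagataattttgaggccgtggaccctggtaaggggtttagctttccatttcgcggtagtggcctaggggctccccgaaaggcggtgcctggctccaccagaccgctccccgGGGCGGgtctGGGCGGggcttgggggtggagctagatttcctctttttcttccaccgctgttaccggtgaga
Kdr: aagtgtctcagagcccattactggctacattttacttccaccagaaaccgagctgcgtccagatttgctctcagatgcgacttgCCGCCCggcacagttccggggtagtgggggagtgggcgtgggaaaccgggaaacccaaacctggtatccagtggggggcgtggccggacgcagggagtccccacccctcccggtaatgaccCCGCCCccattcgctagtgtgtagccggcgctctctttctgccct
Efnb2: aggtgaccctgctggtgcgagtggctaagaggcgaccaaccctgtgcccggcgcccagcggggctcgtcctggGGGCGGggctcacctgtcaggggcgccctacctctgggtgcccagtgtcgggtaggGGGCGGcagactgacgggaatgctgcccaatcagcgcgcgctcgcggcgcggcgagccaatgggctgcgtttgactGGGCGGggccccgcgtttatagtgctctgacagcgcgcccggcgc
Ephb4: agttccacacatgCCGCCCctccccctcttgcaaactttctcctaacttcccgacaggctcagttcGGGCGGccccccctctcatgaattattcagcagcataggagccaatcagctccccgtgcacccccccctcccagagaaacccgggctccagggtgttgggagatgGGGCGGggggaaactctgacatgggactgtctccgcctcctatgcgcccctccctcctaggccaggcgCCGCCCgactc
The windows hold 2, 2, 3, and 4 matches, and their GC content is 59.2, 61.6, 72.0, and 64.0%. Of the 316 listed genes called below, 233 had a window in the table. GGGCGG stood in 68.4% of the 117 windows of EC genes, in 51.4% of the 179 windows of β cell genes, and in 32.7% of all 32851 windows of this length. All windows include those of genes that were not tested here, and the share among tested genes alone was not computed. CCGGAA, the core of ETS factor sites, stood in 9.4, 8.38, and 12.0% of the same windows on either strand, the E box CATCTG in 11.1, 14.0, and 14.4%, and the homeodomain letters TAATTA in 1.71, 1.12, and 4.84%. Matches of different motifs may share bases, and a match describes letters and not binding.

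Ligand genes were found on both sides. Of 143 in the table, 124 passed the score filter, and 37 were called higher in ECs and 49 in β cells, or 29.8 and 39.5% of those tested against 14.4 and 23.7% of all genes. Their median difference was 0.82, beside 0.12 over all genes. In ECs, the list with the highest share was that of the Notch, ephrin, and guidance ligands, with 13 of 28 tested genes and a median of -1.06. The same list had 6 genes higher in β cells. Growth factor ligands had 15 of 47 tested higher in ECs and 22 in β cells, the TGF-β family 4 of 17 and 7, and the vasoactive peptides and chemokines 4 of 20 and 8. Of 22 Wnt ligands and R-spondins, 12 were tested, and 1 of the 12, *Wnt16*, was called higher in ECs and 6 in β cells. After quantile normalization the split of the ligands turned, with 41 higher in ECs and 32 in β cells. That of all genes turned as well, with 3639 higher in ECs and 2659 in β cells.

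*Esm1*, which encodes the secreted endothelial proteoglycan endocan, scored 2, 194, and 337 in β cells and 31716, 31867, 33636, 44453, and 29566 in ECs, a difference of -9.18 ± 1.24 (limma adjusted p = 0.000213). *Nov* (CCN3), a matricellular protein, scored 18, 1, and 41 in β cells and 2674, 3194, 3092, 3187, and 3241 in ECs, a difference of -8.04 ± 0.79 (limma adjusted p = 2.68e-05). *Edn1*, the precursor of the vasoconstrictor endothelin-1, scored 1, 12, and 22 and 737, 1143, 909, 806, and 1318, a difference of -6.83 ± 0.70 (limma adjusted p = 3.56e-05). For all 3, each EC sample lay far above each β cell sample, and β cell replicate 3 was the highest of the β cell samples. *Apln*, whose peptide acts on the endothelial receptor APJ, likewise scored 7, 2, and 125 in β cells and 988, 853, 769, 1050, and 927 in ECs.

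Growth factors made up another group of EC ligands. *Kitl* (stem cell factor) scored 3899, 3673, and 1727 in β cells and 46474, 49124, 44086, 54249, and 44595 in ECs, a difference of -4.03 ± 0.26 (limma adjusted p = 2.74e-06). *Pdgfd* and *Pdgfb*, ligands of the pericyte receptor PDGFRβ, had differences of -4.03 ± 0.33 and -3.39 ± 0.26. *Pdgfb* scored 608, 782, and 1290 in β cells and 10882, 9077, 7299, 7152, and 10917 in ECs, so the groups did not overlap. *Fgf1*, a broad ligand of the FGF receptors, scored 747, 1012, and 437 and 8718, 10140, 11519, 10789, and 6471, a difference of -3.75 ± 0.28 (limma adjusted p = 5.96e-06). *Igf1*, a ligand of the IGF1 receptor that β cells carry, scored 5693, 4530, and 1251 in β cells and 12325, 13462, 11405, 12577, and 11606 in ECs, and its difference of -1.94 ± 0.41 passed the test (limma adjusted p = 0.00333). The β cell scores of *Igf1* were lowest in replicate 3, and at No Dox they ran from 18 to 4359 over the 4 β cell samples. The difference of *Igf1* at 1wk WD was -1.27 without replicate 3 and -3.29 with replicate 3 as the only β cell sample.

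The TGF-β family ligands higher in ECs were *Inhbb*, *Bmp6*, *Tgfb1*, and *Tgfb2*. *Inhbb*, the βB chain of activin, scored 29, 24, and 1 in β cells and 381, 342, 110, 163, and 147 in ECs, a difference of -4.16 ± 0.90 (limma adjusted p = 0.00373). Without β cell replicate 3 the difference of *Inhbb* was -2.9, and with that replicate as the only β cell sample it was -6.67. *Bmp6* scored 1363, 1109, and 124 and 3557, 3899, 2845, 3758, and 2560, a difference of -2.51 ± 0.66 (limma adjusted p = 0.0105). *Tgfb2* had a difference of -1.48 ± 0.43, which became -0.78, below the 2-fold limit, without β cell replicate 3. In each of the 4, β cell replicate 3 lay below the other 2 β cell samples.

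Among the membrane-bound and guidance ligands, *Sema3g* and *Efna1* had the largest differences, -8.57 ± 1.29 and -7.36 ± 0.72. *Efnb2* (ephrin-B2), which marks arterial endothelium, scored 431, 488, and 446 in β cells and 14969, 19641, 15623, 16113, and 16036 in ECs, a difference of -5.17 ± 0.15 (limma adjusted p = 7.23e-08), and its β cell scores were nearly equal. *Dll4*, the Notch ligand of sprouting tip cells, scored 35, 208, and 300 and 5323, 5695, 3386, 3264, and 5459, a difference of -5.10 ± 0.59 (limma adjusted p = 7.9e-05). *Jag2* and *Sema3f* followed with differences of -3.21 ± 0.44 and -4.61 ± 0.32.

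**Figure D2:**
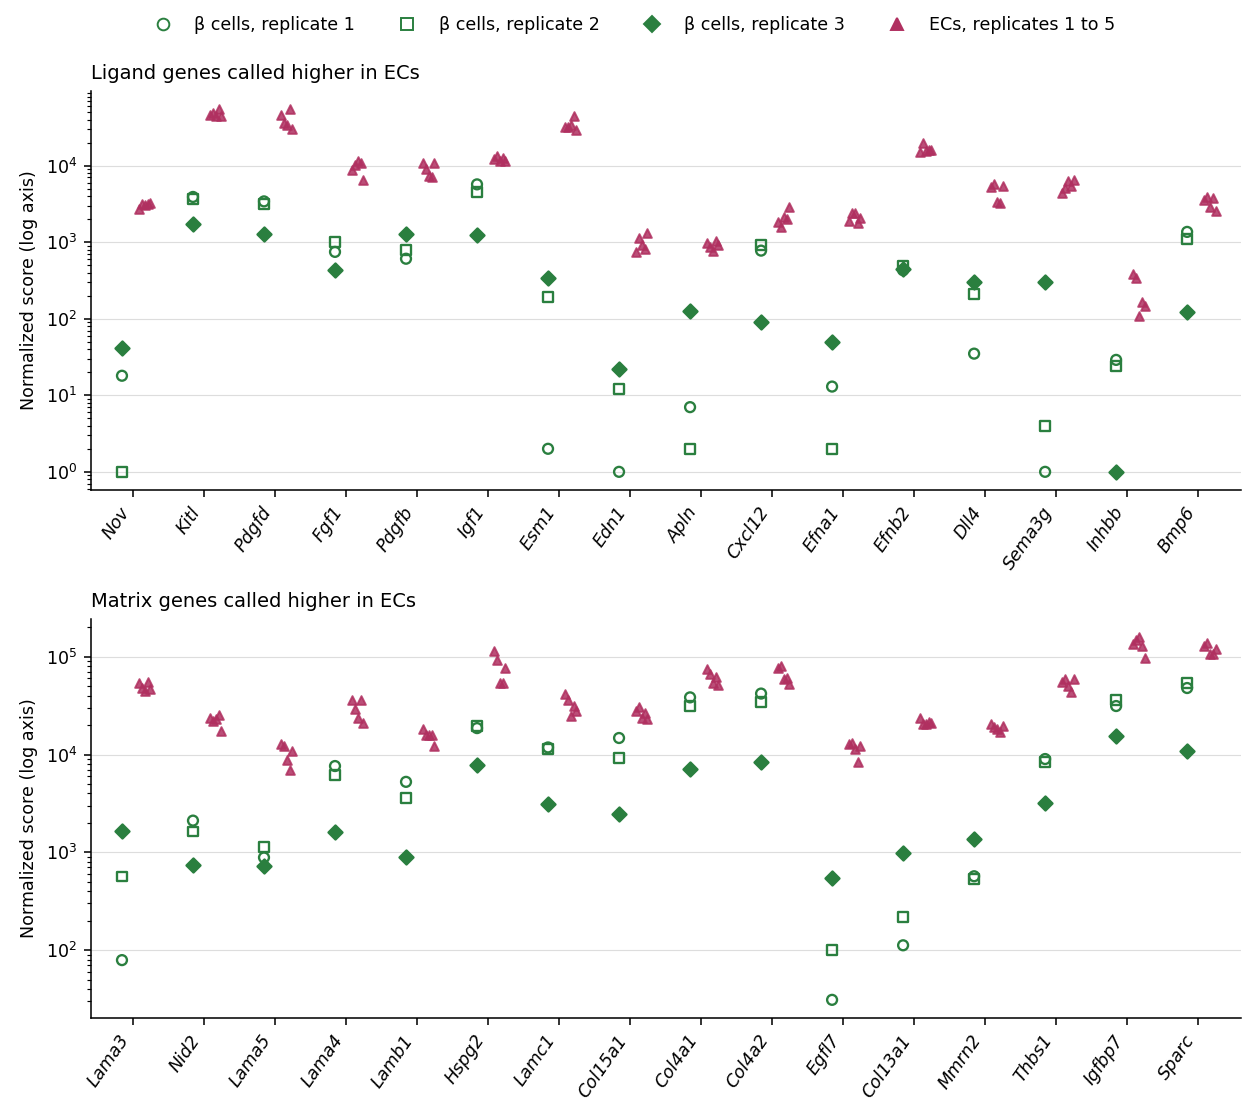
Normalized scores (log axis) of 16 ligand genes and 16 matrix genes called higher in ECs, in each of the 3 β cell samples (green) and 5 EC samples (triangles) at 1wk WD. All EC samples lie above all β cell samples, by the least for *Col4a1* and *Col4a2*; *Lamb1*, *Hspg2*, *Col15a1*, *Col4a2*, *Igfbp7*, and *Sparc* were chosen after their values were seen.

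β cells had their own ligand genes. *Vegfa* scored 2418, 4680, and 15329 in β cells and 147, 144, 241, 183, and 232 in ECs, a difference of 4.91 ± 0.51 (limma adjusted p = 3.82e-05), with β cell replicate 3 highest. The scores are those of the mouse gene, and whether reads of the human transgene entered them was not tested. *Rspo4*, an R-spondin that enhances Wnt signaling, scored 1427, 3412, and 9927 and 7, 1, 5, 1, and 9, the largest difference of the listed ligands at 9.65 ± 0.80 (limma adjusted p = 1.04e-05). *Efna5* (ephrin-A5), which β cells use in contact with each other, scored 8046, 9093, and 13011 and 131, 112, 31, 157, and 99, a difference of 6.70 ± 0.48. *Inha* (inhibin α), *Bmp3*, and *Wnt4* had differences of 7.89 ± 0.74, 7.54 ± 0.76, and 3.99 ± 0.52. In *Vegfa*, *Rspo4*, *Efna5*, *Inha*, and *Wnt4*, replicate 3 lay above both other β cell samples, and in *Bmp3* it lay between them.

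Over the 49 ligand genes called higher in β cells, however, replicate 3 lay below both other samples for 29 and above both for 14. Of all genes called higher in β cells, it lay below both for 33.6% and above both for 54.6%. *Fgf14* and *Slit2* were among the 29 ligand genes with replicate 3 below both, with β cell scores of 1087, 1206, and 156 and 7999, 5605, and 476. Their differences were 7.66 ± 0.86 and 6.94 ± 0.92. With β cell replicate 3 as the only β cell sample, 25 ligand genes (21.4% of those tested) were called higher in β cells and 49 (41.9%) in ECs, against 24.2 and 21.2% of all genes in that fit. *Adm2*, *Edn3*, *Nrtn*, *Btc*, and *Ccl7* were called higher in β cells and listed at 1 in every EC sample, so no fold is given. Their β cell scores ran from 7 for *Nrtn* to 244 for *Adm2*. After quantile normalization, all but *Adm2* lost the call, with limma adjusted p-values of 0.0592 for *Edn3*, 0.195 for *Nrtn*, 0.122 for *Btc*, and 0.0731 for *Ccl7*.

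Matrix genes also divided between the groups. All 70 passed the filter, and 22 (31.4%) were called higher in ECs and 27 (38.6%) in β cells, against 14.4 and 23.7% of all genes. Their median difference was 1.12, beside 0.12 over all genes. The basement membrane genes lay mainly with ECs, with 11 of 23 called higher there, 4 in β cells, and a median of -1.42. The other collagens and matrix proteins had 11 of 47 higher in ECs and 23 in β cells, with a median of 2.31. For 24 of the 27 matrix genes called higher in β cells, replicate 3 was the lowest β cell sample, against 33.6% of all genes called higher in β cells. With β cell replicate 3 as the only β cell sample, 32 matrix genes (48.5%) were higher in ECs and 12 (18.2%) in β cells, against 21.2 and 24.2% of all genes in that fit.

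A laminin chain led the basement membrane genes higher in ECs, followed by *Nid2*. *Lama3*, the α3 chain, scored 79, 566, and 1639 in β cells and 54447, 47861, 44537, 55214, and 46591 in ECs, a difference of -6.88 ± 0.74 (limma adjusted p = 5.03e-05). *Lama5*, the α5 chain of the vascular laminins, scored 885, 1129, and 719 and 12833, 12187, 8812, 6952, and 10778, a difference of -3.49 ± 0.24 (limma adjusted p = 3.41e-06). *Lama4*, the other α chain of vascular laminins, scored 7625, 6200, and 1595 and 36356, 29045, 23761, 36459, and 21024, a difference of -2.76 ± 0.46 (limma adjusted p = 0.000779). *Lamc1*, the γ1 chain, had a difference of -2.08 ± 0.41, and *Nid2* (nidogen-2), which links laminin to collagen IV, had -4.02 ± 0.31.

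*Col4a1*, a main chain of collagen IV, had β cell scores too. It scored 38408, 31329, and 7134 in β cells and 74091, 66180, 53645, 62355, and 51336 in ECs, a difference of -1.57 ± 0.47 (limma adjusted p = 0.0206). The difference was -0.81 without β cell replicate 3, below the 2-fold limit, and -3.09 with that replicate as the only β cell sample. After quantile normalization it was -1.14 (limma adjusted p = 0.0917). *Col4a2*, which starts beside *Col4a1* on the opposite strand, had a similar difference of -1.50 ± 0.46 in the reported fit. The sources used here do not state whether reads were counted by strand.

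Outside the basement membrane, *Egfl7*, an endothelial matrix protein, scored 31, 101, and 544 in β cells and 12881, 13032, 11491, 8331, and 12205 in ECs, a difference of -6.56 ± 0.70 (limma adjusted p = 4.79e-05). *Col13a1*, a transmembrane collagen, scored 112, 219, and 975 and 23711, 20603, 20616, 21569, and 21202, a difference of -6.22 ± 0.54. *Mmrn1* (multimerin-1) was listed at 1 in all 3 β cell samples and scored 127, 290, 147, 320, and 219 in ECs. *Mmrn2*, its endothelial relative, had a difference of -4.65 ± 0.28, and *Thbs1* (thrombospondin-1) -3.09 ± 0.32.

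The matrix genes higher in β cells were led by genes that fibroblasts express. *Dcn* and *Lum*, small leucine-rich proteoglycans, scored 20677, 20646, and 1208 and 6339, 6790, and 697 in β cells, with differences of 7.81 ± 1.11 and 7.86 ± 0.75. *Col1a1* had the largest, 8.06 ± 0.91 (limma adjusted p = 6.37e-05). All 3 are on the list of pericyte and fibroblast markers and were lowest in replicate 3, where each still lay above every EC sample. At No Dox, *Col1a1* scored 23, 4, 13278, and 33390 in the 4 β cell samples and was not called. *Fn1* (fibronectin) scored 16993, 12708, and 839 in β cells and 377, 225, 500, 295, and 436 in ECs, and its difference passed the test but was 1.25 (limma adjusted p = 0.0685) with replicate 3 alone. The laminin chains *Lama2* and *Lamb3* were higher in β cells as well. *Lama2* scored 36584, 26783, and 1845 in β cells, with replicate 3 lowest, and its call was lost with replicate 3 alone (1.71, limma adjusted p = 0.152), whereas *Lamb3* scored 66, 60, and 127 and was listed at 1 in all ECs.

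**Figure D3:**
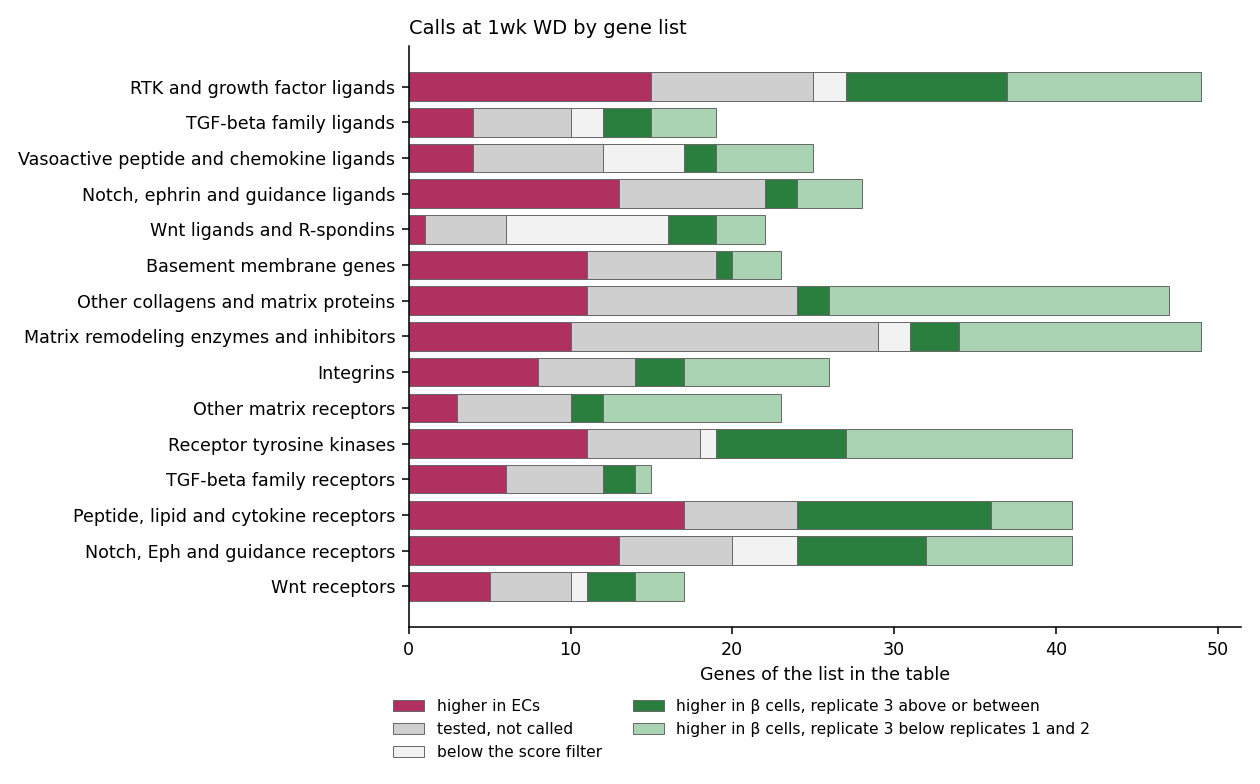
Number of genes of each list in the table (bar length) by their call at 1wk WD, from higher in ECs (left) to higher in β cells (right, split by whether β cell replicate 3 lay below the other 2 samples). Of 47 other collagens and matrix proteins, 23 were higher in β cells and 21 of those had replicate 3 lowest.

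Among the enzymes and inhibitors that remodel matrix, 47 of 49 passed the filter, and 10 (21.3%) were higher in ECs and 18 (38.3%) in β cells, against 14.4 and 23.7% of all genes. Their median of 0.19 was near that of all genes, 0.12. *Adamts9*, a secreted metalloproteinase, scored 3645, 2466, and 477 in β cells and 22600, 16879, 15185, 23816, and 14202 in ECs, a difference of -3.48 ± 0.55 (limma adjusted p = 0.000601). *Plaur*, the urokinase receptor, and *Adam15*, a membrane-anchored disintegrin, had differences of -3.17 ± 0.43 and -3.03 ± 0.27. On the side of β cells, 15 of 18 had replicate 3 lowest, against 33.6% of all genes called higher in β cells. Among the 15 were *Mmp2*, *Loxl1*, and *Adamts2*. With replicate 3 alone, *Mmp2* and *Loxl1* lost the call (limma adjusted p = 0.0561 and 0.0553). *Adam23*, an adhesive ADAM without protease activity, scored 6084, 6057, and 1957 in β cells and 35, 38, 9, 54, and 13 in ECs, a difference of 7.35 ± 0.65 (limma adjusted p = 1.47e-05). With replicate 3 as the only β cell sample, 22 remodeling genes (46.8%) were higher in ECs and 8 (17.0%) in β cells, against 21.2 and 24.2% of all genes in that fit.

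Receptor genes were the largest set. Of 204, 198 passed the filter, 90 were called higher in β cells and 63 in ECs, or 45.5 and 31.8% of those tested against 23.7 and 14.4% of all genes, and the median was 1.43. Of the 90, replicate 3 was the highest β cell sample for 34, the lowest for 52, and between for 4. It was the highest for 54.6% and the lowest for 33.6% of all genes called higher in β cells. With that replicate alone the split turned, with 66 receptor genes (34.6%) higher in β cells and 72 (37.7%) in ECs, against 24.2 and 21.2% of all genes in that fit. Without it, 100 receptor genes were higher in β cells and 55 in ECs, beside 4150 and 2220 of all genes in that fit. Receptor tyrosine kinases and their coreceptors had 22 of 40 tested higher in β cells and 11 in ECs, with a median of 3.28. Other matrix receptors had 13 of 23 in β cells and 3 in ECs (median 2.75), integrins 12 of 26 and 8 (0.52), and Notch, Eph, and guidance receptors 17 of 37 tested and 13 (1.90). Of integrins and guidance receptors, 30.8 and 35.1% were thus higher in ECs, also above the 14.4% of all genes. Peptide, lipid, and cytokine receptors had 17 of 41 on each side, and Wnt receptors 6 of 16 tested in β cells and 5 in ECs. TGF-β family receptors leaned to ECs, with 6 of 15 against 3 and a median of -0.97.

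The largest differences of the listed receptors were those of *Prlr* and *Glp1r*. *Prlr*, the prolactin receptor, scored 18761, 38525, and 81885 in β cells and 25, 4, 2, 7, and 41 in ECs, a difference of 11.85 ± 0.87 (limma adjusted p = 5.1e-06). *Glp1r*, the receptor of the incretin GLP-1, scored 29928, 49397, and 104386 and 63, 6, 1, 11, and 62, a difference of 11.84 ± 1.07 (limma adjusted p = 1.68e-05). *Galr1* and *Sstr3*, the receptors of galanin and somatostatin, had differences of 9.26 ± 0.80 and 8.39 ± 0.77. All 4 were highest in β cell replicate 3 and had the same call at No Dox.

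The receptor tyrosine kinases higher in β cells included several growth factor receptors. *Insrr*, the insulin receptor-related receptor, scored 1199, 1619, and 5161 in β cells and 2, 1, 1, 1, and 2 in ECs, a difference of 9.84 ± 0.61 (limma adjusted p = 2.17e-06). *Ret*, the signaling receptor of the GDNF family, scored 1329, 2518, and 6782 and 115, 83, 147, 223, and 106, a difference of 4.47 ± 0.51 (limma adjusted p = 7.22e-05). Its coreceptor *Gfra3* scored 707, 1409, and 967 in β cells and was listed at 1 in every EC sample. *Igf1r* scored 13817, 12929, and 14917 in β cells and 6150, 5503, 4819, 5563, and 6670 in ECs, a small difference of 1.28 ± 0.15 with little spread (limma adjusted p = 9.55e-05). *Ror2*, a Wnt5a receptor, scored 7693, 8785, and 8000 and 103, 31, 9, 77, and 32, a difference of 7.72 ± 0.67, with replicate 3 between the other 2.

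Of the TGF-β family receptors, *Acvr1c* (ALK7), a type I receptor of activins and Nodal, scored 479, 561, and 3712 in β cells and 4, 20, 74, 6, and 10 in ECs, a difference of 6.12 ± 0.98 (limma adjusted p = 0.000633). *Bmpr1b* scored 718, 1460, and 3000 and 42, 40, 113, 47, and 16, a difference of 5.06 ± 0.64 (limma adjusted p = 0.00014). *Bmpr1a* had the smaller difference of 1.95 ± 0.26. *Acvr1c* and *Bmpr1b* were highest in replicate 3, and *Bmpr1a* was lowest there. Of the guidance receptors, *Robo2* and *Vldlr*, receptors of Slit and reelin, had differences of 7.11 ± 0.40 and 8.52 ± 1.02 with replicate 3 highest.

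Receptors of matrix proteins were mixed. *Ddr1*, a collagen-activated receptor tyrosine kinase, scored 983, 1350, and 2606 in β cells and 20, 5, 32, 11, and 6 in ECs, a difference of 6.88 ± 0.66 (limma adjusted p = 2.36e-05). *Itgav*, the integrin αv chain, scored 6072, 6737, and 6907 and 3550, 2950, 2871, 3199, and 2726, a difference of 1.11 ± 0.15 (limma adjusted p = 0.00018). Both were highest in replicate 3. *Itgb8*, *Itgax*, *Itgb2*, and *Itga4* had the largest integrin differences, from 4.33 ± 0.34 to 7.48 ± 0.79, and were lowest in replicate 3. *Itgb2* lost its call with that replicate as the only β cell sample (limma adjusted p = 0.0527). *Itgax* and *Itgb2* encode leukocyte integrins, and *Itga4* is also carried by leukocytes. *Cd44*, a hyaluronan receptor, scored 6883, 5899, and 3655 in β cells and 173, 73, 49, 85, and 48 in ECs.

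The receptors with replicate 3 lowest included several that pericytes and fibroblasts carry. *Pdgfrb* was called at 3.19 ± 0.85 (limma adjusted p = 0.0116), but β cell replicate 3, at 3980, lay within the EC range. The difference of *Pdgfrb* was 0.88 (limma adjusted p = 0.51) with replicate 3 as the only β cell sample. It was 2.55 (limma adjusted p = 0.0518) without replicate 1 and 2.68 (limma adjusted p = 0.0566) without replicate 2. *Ephb2* scored 3741, 3018, and 252 in β cells and 4, 1, 1, 45, and 3 in ECs. *Egfr* and *Erbb3*, receptors of the EGF family, had replicate 3 lowest too, but *Egfr* still scored 4815 there against at most 314 in ECs. At No Dox, *Egfr* scored 5648, 4730, 5955, and 13421 in the 4 β cell samples.

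**Figure D4:**
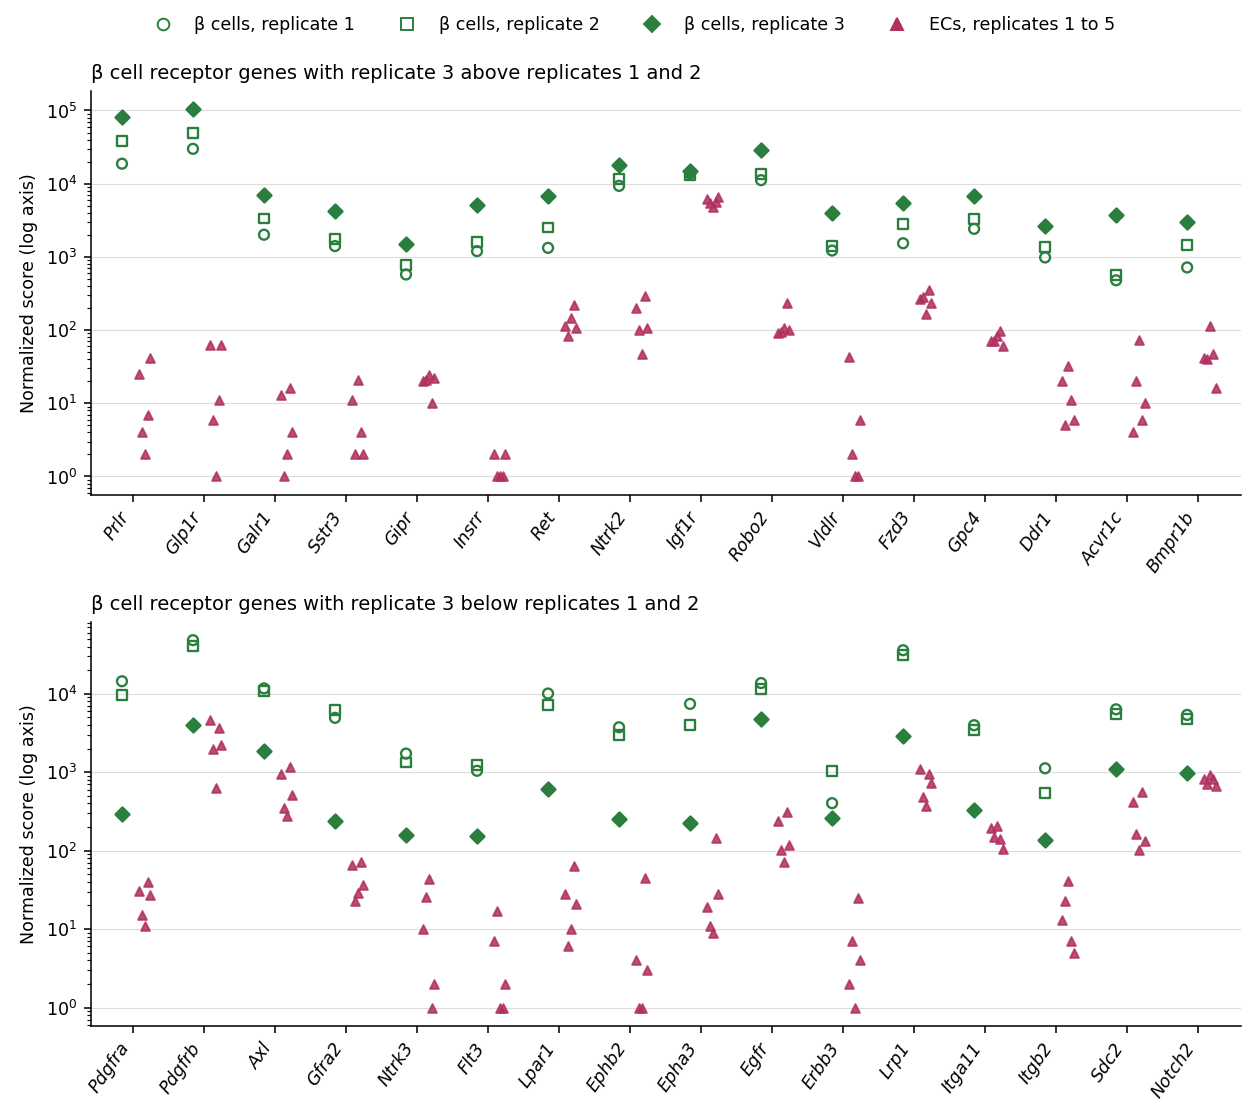
Normalized scores (log axis) of 32 receptor genes called higher in β cells, with β cell replicate 3 (filled diamond) above (upper panel) or below (lower panel) the other 2 β cell samples (open symbols), beside the 5 EC samples (triangles). *Pdgfrb* is a gene of the lower panel whose replicate 3 score, 3980, lies within the EC range; *Gipr*, *Ntrk2*, *Gpc4*, *Pdgfra*, *Axl*, *Ntrk3*, *Flt3*, *Lpar1*, *Lrp1*, *Itga11*, *Sdc2*, and *Notch2* were chosen after their values were seen.

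Receptors called higher in ECs included those of VEGF and the angiopoietins. *Flt1* and *Flt4*, the other VEGF receptors, had differences of -6.06 ± 0.32 and -6.12 ± 0.43, beside -6.82 ± 0.66 for *Kdr*. *Tek*, the angiopoietin receptor TIE2, scored 649, 958, and 872 in β cells and 34608, 36713, 34250, 36317, and 34351 in ECs, a difference of -5.43 ± 0.16 (limma adjusted p = 7.23e-08). *S1pr1*, the sphingosine 1-phosphate receptor of endothelium, and *Calcrl*, the receptor of the adrenomedullin family, had differences of -7.53 ± 0.80 and -5.82 ± 0.26. *Ephb1* and *Robo4* led the guidance receptors at -8.40 ± 1.42 and -7.74 ± 1.34. Of the integrins, *Itga5*, *Itga6*, *Itgb3*, and *Itga1* were higher in ECs, from -2.71 ± 0.31 for the fibronectin receptor chain *Itga5* to -2.22 ± 0.62 for the collagen receptor chain *Itga1*.

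Ligand and receptor values were then read side by side for 78 known pairs, of which 75 had both genes tested. Both genes were called in 46 pairs. In 21 both were higher in ECs, in 14 both in β cells, in 5 the ligand was higher in ECs and the receptor in β cells, and in 6 the reverse. The percentages called over all genes, 14.4 in ECs and 23.7 in β cells, apply to each gene of a pair, and pairs share genes.

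The 5 pairs with an EC ligand and a β cell receptor were *Igf1* and *Igf1r*, *Inhbb* and *Acvr1c*, *Col4a1* and *Ddr1*, *Hbegf* and *Egfr*, and *Pdgfb* and *Pdgfrb*. Of their receptors, *Igf1r*, *Acvr1c*, and *Ddr1* were highest in β cell replicate 3, and *Egfr* and *Pdgfrb* lowest. *Hbegf*, an EGF family ligand, scored 405, 487, and 324 in β cells and 1747, 2970, 1575, 1029, and 1740 in ECs, a difference of -2.09 ± 0.31 (limma adjusted p = 0.000414). With replicate 3 as the only β cell sample there were 9 such pairs, which kept *Igf1*, *Inhbb*, *Col4a1*, and *Hbegf* with their receptors, lost *Pdgfb* and *Pdgfrb*, and added pairs such as *Gas6* and *Tyro3*. Without replicate 3 there were again 5, with *Edn1* and *Ednra* in place of *Col4a1* and *Ddr1*. After quantile normalization there were also 5, with *Bmp2* and *Bmpr1a* in that place. Leaving out replicate 1 or replicate 2 gave 5 as well, with *Jag1* and *Notch2* in place of *Pdgfb* and *Pdgfrb*. At a fold change of 4 or more, 3 remained, and with all 9 groups of the series in the fit, 2.

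These genes stand at separate places in the genome. On mm9, *Igf1* is at chr10:87321010-87399792 and *Igf1r* at chr7:75097713-75371484, *Inhbb* at chr1:121312042-121318825 and *Acvr1c* at chr2:58119864-58210306, and *Col4a1* at chr8:11198423-11312826 and *Ddr1* at chr17:35818512-35841566. *Hbegf* is at chr18:36664583-36675459, *Egfr* at chr11:16652206-16818161, *Pdgfb* at chr15:79826330-79845238, and *Pdgfrb* at chr18:61204804-61244715.

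In the reverse direction, the pairs were *Vegfa* and *Kdr*, *Vegfb* and *Flt1*, *Pgf* and *Flt1*, *Wnt4* and *Fzd6*, *Edn3* and *Ednrb*, and *Fn1* and *Itga5*. *Vegfb*, a ligand of VEGFR1 (*Flt1*), scored 588, 775, and 1092 in β cells and 107, 148, 77, 170, and 66 in ECs, a difference of 2.88 ± 0.41 (limma adjusted p = 0.000282). *Fzd6*, a Wnt receptor, scored 534, 677, and 1931 and 3615, 4122, 4089, 5925, and 5425, a difference of -2.36 ± 0.38 (limma adjusted p = 0.000639). *Vegfa*, *Vegfb*, and *Wnt4* had replicate 3 highest among β cells, and *Pgf*, *Edn3*, and *Fn1* lowest. With replicate 3 as the only β cell sample, 3 of the 6 were called, *Vegfa* and *Kdr*, *Vegfb* and *Flt1*, and *Wnt4* and *Fzd6*. After quantile normalization 5 were, without *Edn3* and *Ednrb*.

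Pairs within ECs included *Efnb2* and *Ephb4*, *Dll4* with *Notch1* and *Notch4*, *Apln* and *Aplnr*, *Angpt2* and *Tek*, and the laminins with *Itga6*, *Itga3*, *Itgb1*, or *Bcam*. *Itgb1*, at -1.07, fell below the 2-fold limit without β cell replicate 3 (-0.84) and after quantile normalization (-0.73), and *Itga3*, at -1.43, did so with that replicate alone (-0.96). *Ephb4*, the receptor of ephrin-B2, scored 635, 806, and 467 in β cells and 10245, 9364, 5937, 5866, and 11731 in ECs, a difference of -3.74 ± 0.28 (limma adjusted p = 5.89e-06). *Bcam*, a receptor of laminin α5, scored 1355, 1380, and 427 and 8699, 8407, 4917, 3332, and 7584, a difference of -2.74 ± 0.44 (limma adjusted p = 0.000684). Within β cells, *Gdnf* and *Ret*, *Slit2* with *Robo1* and *Robo2*, and *Efna5* and *Epha7* were both called. *Gdnf* and *Slit2* had replicate 3 lowest, and the other genes of these pairs had it highest. *Epha7* scored 473, 488, and 550 in β cells and 18, 17, 19, 4, and 15 in ECs, with little spread among β cells.

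**Figure D5:**
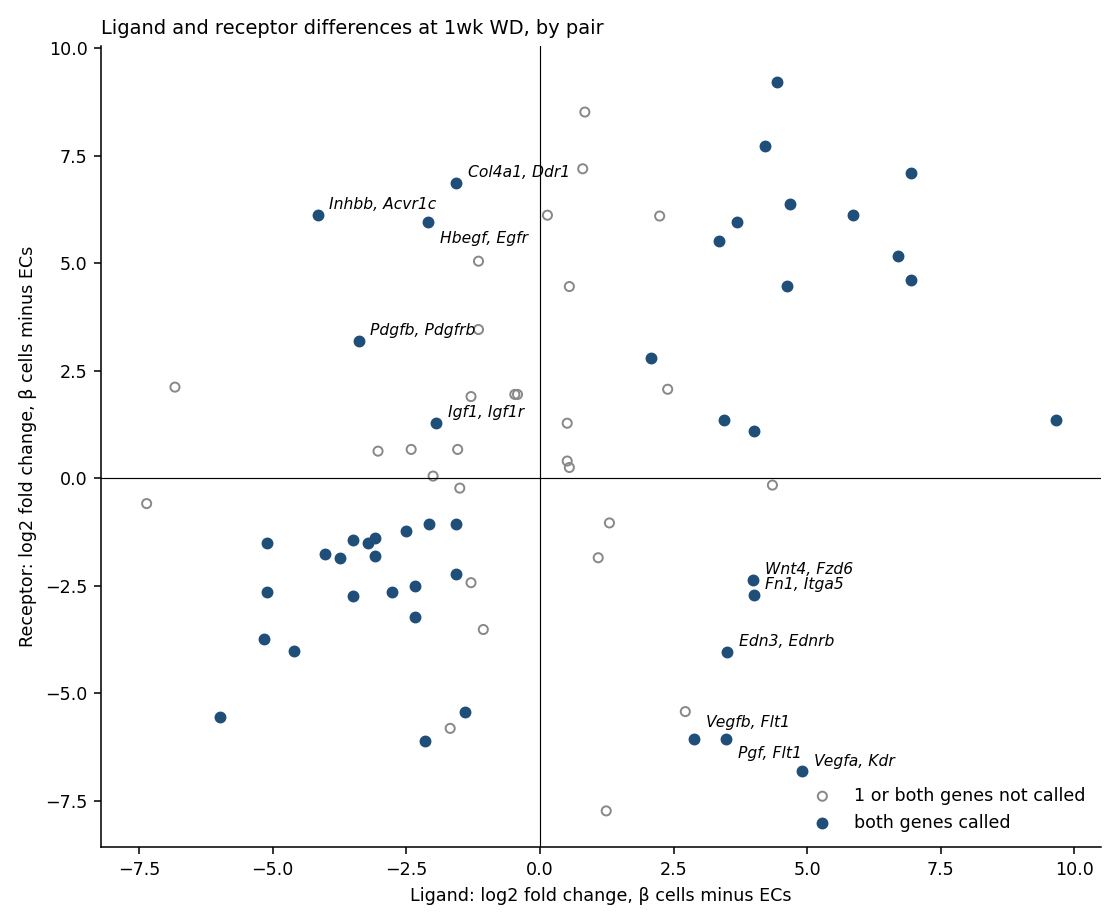
Log2 difference (β cells minus ECs) of the ligand (horizontal) against that of the receptor (vertical) for the 75 pairs with both genes tested at 1wk WD, filled where both were called. The 5 named pairs at upper left have the ligand higher in ECs and the receptor in β cells, and the 6 named at lower right have the reverse.

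The No Dox comparison shares no sample with that at 1wk WD. There, 15896 genes were tested, and 2577 (16.2%) were called higher in ECs and 3406 (21.4%) in β cells. Of the genes called at 1wk WD, 76.9% of those higher in ECs and 70.0% of those higher in β cells had the same call at No Dox, which is 69.2 and 78.2% of the No Dox calls. Of listed genes, the same call was found for 58 of 63 receptors, 30 of 37 ligands, 20 of 22 matrix genes, and 9 of 10 remodeling genes higher in ECs. On the side of β cells it was found for 58 of 90 receptors, 26 of 49 ligands, 5 of 27 matrix genes, and 4 of 18 remodeling genes. Over all genes, 2 of the 3805 higher in β cells and 1 of the 2318 higher in ECs had the opposite call at No Dox, and none of these was a listed gene. The No Dox β cell samples also differ in pericyte and fibroblast markers, which summed to 1492, 1708, 170966, and 590858, and in acinar markers, which summed to 736414, 33378, 12821468, and 9526872.

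Whether the β cell to EC difference itself changed from No Dox to 1wk WD was tested as an interaction over 16431 genes. Of these, 15 (0.0913%) passed in limma, and 1201 (7.31%) did at an unadjusted p under 0.05. *Ramp3*, which modifies the receptor of adrenomedullin, was the one listed gene among them. It scored 78, 67, and 35 in β cells and 1533, 1494, 884, 693, and 1273 in ECs at 1wk WD, and 1, 1, 8, and 15 in β cells and 2895, 2356, 2785, and 2230 in ECs at No Dox. The difference was -4.28 ± 0.38 at 1wk WD and -9.03 at No Dox, a change of 4.74 (limma adjusted p = 0.0465). With the replicate block, the change of *Ramp3* no longer passed (4.89, limma adjusted p = 0.211), and it passed in 3 of the 16 fits that left out single samples, with limma adjusted p-values from 0.0063 to 0.152. It did not pass at a pseudocount of 0.1 (limma adjusted p = 0.0736), with no trend of the spread (0.0533), or with replicate 3 as the only 1wk WD β cell sample (0.0871), and at a pseudocount of 20 it passed with a change of 2.77. *Ramp3* was at the lowest score in 2 of the 4 No Dox β cell samples. The number of genes passing ranged from 1 to 241 when single samples were left out, with 241 without No Dox β cell replicate 4 and 108 without 1wk WD β cell replicate 3. For *Igf1r*, *Ddr1*, *Acvr1c*, and *Egfr*, the change was 0.82, -0.57, -0.68, and -1.35, and none passed.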

How the data were processed

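Islets of βVEGF-A; MIP-GFP mice were sorted into β cells, ECs, and MΦs. The authors amplified the RNA, sequenced paired-end reads, aligned them to mm9 with TopHat 2.0, and normalized gene values by TMM in Avadis NGS. What they deposited is a score per gene and sample, rounded to a whole number, and 1 is the lowest score. The counting setting and annotation version are not given in the sources used here. Of 38 columns of sample values, 32 matched the samples by label and 6 were not used. Through the gene identifiers, 25 symbols that had become dates were recovered, and 252 genes share a symbol with another.

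The 3 β cell and 5 EC samples at 1wk WD were compared on log2(score + 1) with limma (version 3.58.1, R 4.3.3, moderated by empirical Bayes with a trend). Genes entered at a mean score of 20 or higher in either group. A call needed a 2-fold difference and an adjusted p (Benjamini-Hochberg, over all genes tested) below 0.05. No Dox and the interaction were fitted the same way. Code was tested on simulated data. Replicates are separate pooled samples, so p-values measure the spread between them. Summaries and figures used Python 3.11.15 and matplotlib 3.10.9.

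The members, gene lists, marker lists, and pairs were chosen with earlier results of these data known. Genes named are the 4 with the largest difference each way per list, among called genes whose groups do not overlap, both genes of pairs called on both sides, the 5 largest each way over all genes, list genes passing the interaction test, and markers as needed. Genes named outside this rule were chosen after their values were seen. Alternatives varied the pseudocount, filter, scaling, spread, samples fitted, replicate block, call, and each replicate. A fit with 1wk WD β cell replicate 3 as the only β cell sample was added after seeing the data.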

Additional observations from a re-analysis of the deposited data

Results flagged for a closer look

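Among the 155 named genes tested for it, 23 had 1 EC sample at 1wk WD whose distance to the nearest other sample, as a share of the range of the 5 samples, exceeded the limit of 0.71. Chance gives about 1 in 20 genes where values are normally distributed. The limit was applied to scores without a log, some of them near the lowest, so the share that chance gives here is not known. EC replicate 4 was the highest for *Fgf14* (8), *Esm1* (44453), *Col1a1* (201), *Itga4* (391), *Ephb2* (45), *Robo2* (234), *Epha3* (144), *Erbb3* (25), *Acvr2a* (8410), *Vegfc* (4708), and *Ptn* (176), and the lowest for *Epha7* (4). EC replicate 1 was the highest for *Inha* (7), *Bmp3* (14), *Vldlr* (43), and *Csf1* (617), and the lowest for *Nov* (2674). EC replicate 2 was the highest for *Efnb2* (19641) and the lowest for *Notch4* (9921). EC replicate 3 was the highest for *Acvr1c* (74) and *Fzd2* (9) and the lowest for *Dcn* (4), and EC replicate 5 was the highest for *Loxl1* (94). Replicate 4 also had the highest summed score of pericyte and fibroblast markers among the ECs, 79199, and the part of those cells in these values was not tested.

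The difference of *Ramp3* between β cells and ECs changed by 4.74 on the log2 scale from No Dox to 1wk WD, by a test of the interaction (limma adjusted p = 0.0465). The replicate block ended this call (4.89, limma adjusted p = 0.211), as did 13 of 16 fits without a single sample, a pseudocount of 0.1, no trend of the spread, and β cell replicate 3 alone. At a pseudocount of 20 the change was 2.77.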

How the results depend on the processing

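Under the alternatives run, no difference of a named gene changed direction. Of 3384 values of the 162 named genes, 3302 kept their call and 82 lost it. A further 18 could not be given because the gene fell below the filter. In the fits that tested them, 119 genes never lost the call. Many of the named genes were chosen for large differences in the reported fit, so a kept direction or call is partly set by that choice. The settings of a fold change of 4 or more and an unadjusted p reuse the differences of the reported fit, so no direction could change there. Counts that moved by over 1.5 times follow, beside the reported count in parentheses. At a mean score of at least 200, 32 ligand genes were higher in β cells (49). Quantile normalization gave 32 such ligands and 3639 genes higher in ECs (2318). With all 9 groups in the fit, 14 matrix genes were higher in ECs (22), and 2 pairs joined an EC ligand to a β cell receptor (5). At a fold change of 4 or more, 3950 genes were called (6123), 1117 higher in ECs, with 29 pairs called on both sides (46) and 3 from EC ligand to β cell receptor. With 1wk WD β cell replicate 3 as the only β cell sample, assumed to vary like the others, 25 ligands, 12 matrix genes (27), and 8 remodeling genes (18) were higher in β cells, 22 remodeling genes (10) in ECs, and 9 pairs ran from EC to β cell and 3 from β cell to EC (6). The interaction, with 15 genes, gave 25 with no filter, 0 with the replicate block in limma (1090 at an unadjusted p under 0.05), 1201 at an unadjusted p without it, 276 with β cell replicate 3 alone, and 1 to 241 when single samples were left out (1 without No Dox EC replicate 3, 241 without No Dox β cell replicate 4). Leaving out No Dox β cell replicate 1, 2, or 3 or 1wk WD EC replicate 1 moved it by less than 1.5 times, and any other sample by more. The causes were not tested. Samples share only a number across cell types: at 1wk WD, deviations of samples with the same number in their titles correlated at 0.13, -0.056, and 0.069. A second label in the header numbers β cell replicate 3 as 4, and its deviations correlated at -0.081 with those of EC replicate 4. The replicate block used the numbers of the titles. The replicate block gave 2849 genes higher in β cells and 1850 in ECs, and 268 listed genes (316). Depth is unknown, so differences between low scores are the least sure.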
